A study of Mus musculus with 7 samples.

Results

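The genes of the red cell lineage, 30 in all, were followed across microarrays of the embryonic mouse subpallium. They comprise 3 embryonic globins (Hbb-bh1, Hbb-y and Hba-x), 2 adult globins (Hba-a1 and Hbb-bt), 9 genes of heme synthesis and iron uptake, 9 of the red cell membrane and its cytoskeleton, and 7 erythroid regulators and chaperones. The genes were picked by name, with earlier results of these data known, and each was read from its brightest named probe. Of 17145 genes with a named probe and a value, 29 were members, and Ahsp, which encodes the chaperone of alpha globin, had no named probe here. The probes of 27 members entered the test over 13350 genes, and 26 members had a value on every array.

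Red cells of the mouse embryo arise in waves. Primitive erythroblasts form in the yolk sac, enter the circulation while still nucleated and carry embryonic globins. The definitive cells that follow from the fetal liver carry adult globins. A globin message does not by itself identify the kind of red cell, and which kind each message here came from was not tested. Both kinds build hemoglobin from globin chains and heme, whose synthesis in red cells starts with the enzyme encoded by Alas2. A piece of embryonic brain contains such cells inside its vessels, so their messages are measured together with those of the neural tissue.

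Each of the 7 arrays measured the ganglionic eminences and septum of 1 female CD-1 embryo at E12.5, in midgestation. The 3 arrays labelled Otx2 cKO come from a conditional knockout in which RxCre recombines a floxed allele of Otx2, which encodes a forebrain transcription factor. Cre is made across the forebrain in RxCre mice, but not in its caudal dorsomedial part with the cortical hem and choroid plexus. The 4 arrays labelled control are called only that, and their Cre and floxed alleles are not given in the labels. Embryos came from 4 litters, and litter 2 supplied cKO-labelled replicates 1 and 3 and control replicates 2 and 3. The other 3 arrays were each alone in their litter. Slide 1 carried cKO-labelled replicate 1 and control replicates 1 and 2, and slide 2 carried the remaining 4 arrays. P-values measure the spread between embryos, with 3 against 4. The main fit treats the 7 embryos as independent, although 4 of them shared litter 2.

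All values are log2 signals relative to the 75th percentile of their array, so that 0 is the signal of a probe at that percentile. The share of spots well above background was 68.4% to 72.2%. The Otx2 probe went against the label: its log2 signal was 1.73, 2.27 and 1.72 in cKO-labelled replicates 1 to 3, against 0.13, 0.48, 0.42 and 0.50 in control replicates 1 to 4. The difference was 1.52 ± 0.17 (SE, adjusted p = 0.0288, limma), higher in the cKO-labelled arrays. No source used here says whether the probe lies in the deleted part, and the group is called cKO-labelled for this reason.

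The upstream sequences of 5 members are shown because these genes carry the patterns described below: embryonic globins, adult globins and the first enzyme of red cell heme synthesis. They are the 150 bases before the annotated start in the RefSeq promoter table (GRCm38.p6), written 5′ to 3′ along the gene's own strand. Capitals mark matches, on either strand, to the GATA motif (the letters GATA with A or T before them and A or G after them), to CACCC and to CCAAT, the letters bound by GATA factors, by KLF factors such as Klf1 and by NF-Y. No 2 matches overlapped in these 5 windows.
Hbb-y, chr7:103853208-103853357, minus strand: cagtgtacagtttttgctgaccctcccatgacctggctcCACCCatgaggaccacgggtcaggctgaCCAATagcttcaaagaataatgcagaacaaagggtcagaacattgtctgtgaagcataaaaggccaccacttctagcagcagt
Hba-x, chr11:32276450-32276599, plus strand: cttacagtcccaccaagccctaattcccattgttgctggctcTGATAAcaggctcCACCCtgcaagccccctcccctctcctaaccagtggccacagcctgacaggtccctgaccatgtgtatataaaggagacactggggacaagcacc
Hbb-bt, chr7:103813924-103814073, minus strand: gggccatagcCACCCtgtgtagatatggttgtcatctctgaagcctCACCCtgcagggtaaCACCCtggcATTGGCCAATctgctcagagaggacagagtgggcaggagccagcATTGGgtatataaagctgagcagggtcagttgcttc
Hba-a1, chr11:32283522-32283671, plus strand: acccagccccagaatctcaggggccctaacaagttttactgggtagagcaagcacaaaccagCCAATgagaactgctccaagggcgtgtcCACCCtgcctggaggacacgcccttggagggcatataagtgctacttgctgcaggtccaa
Alas2, chrX:150547267-150547416, plus strand: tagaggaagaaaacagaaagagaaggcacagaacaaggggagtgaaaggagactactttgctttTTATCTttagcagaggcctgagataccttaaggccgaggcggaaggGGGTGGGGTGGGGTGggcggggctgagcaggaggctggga

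The adult beta globin Hbb-bt had 3 CACCC and 3 CCAAT matches in this window, and the embryonic beta globin Hbb-y had 1 of each. Hba-x had 1 GATA and 1 CACCC match, Hba-a1 had 1 CACCC and 1 CCAAT match, and Alas2 had 1 GATA and 3 CACCC matches. Of the 30 members 23 were in the table. Among them 17 (73.9%) held CACCC, 10 (43.5%) the GATA motif and 10 (43.5%) CCAAT, beside 40.5%, 18.4% and 27.7% of 27025 genes in the table. A match of these letters describes the window only.

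Between cKO-labelled and control arrays, no erythroid member passed the test. Limma called 0 of 27 tested members at an adjusted p of 0.05, where 0.21% of all 13350 genes were called (0.0899% higher and 0.12% lower; 12 and 16 genes, against 7 and 17 after quantile normalization, 16 and 34 with normexp and quantile normalization). At an unadjusted p under 0.05, 1 member was lower and 0 were higher, against 6.78% and 4.29% of all genes. The smallest adjusted p of any member was 0.383, and the groups did not overlap for 1 member, Ank1, whose cKO-labelled values lay below the controls, against 12.7% of all genes (5.45% above and 7.26% below). The log2 difference was above 0 for 24 members and below 0 for 3, against 7231 and 6119 of all 13350 genes. Its median was 0.08 over the members, beside 0.02 over all genes tested. The median difference was 0.05 for the embryonic globins, 0.20 for the adult globins, 0.01 for heme synthesis and iron, 0.34 for membrane and cytoskeleton and 0.20 for regulators. Without cKO-labelled replicate 2 the medians were -0.12 for the embryonic globins, -0.03 for heme synthesis and iron, -0.04 for membrane and cytoskeleton and -0.17 for regulators, each on the other side of 0. Of the adult globins Hbb-bt could not be fitted without that array, and Hba-a1 alone had a difference of -0.23, beside 0.01 with it.

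**Figure D1:**
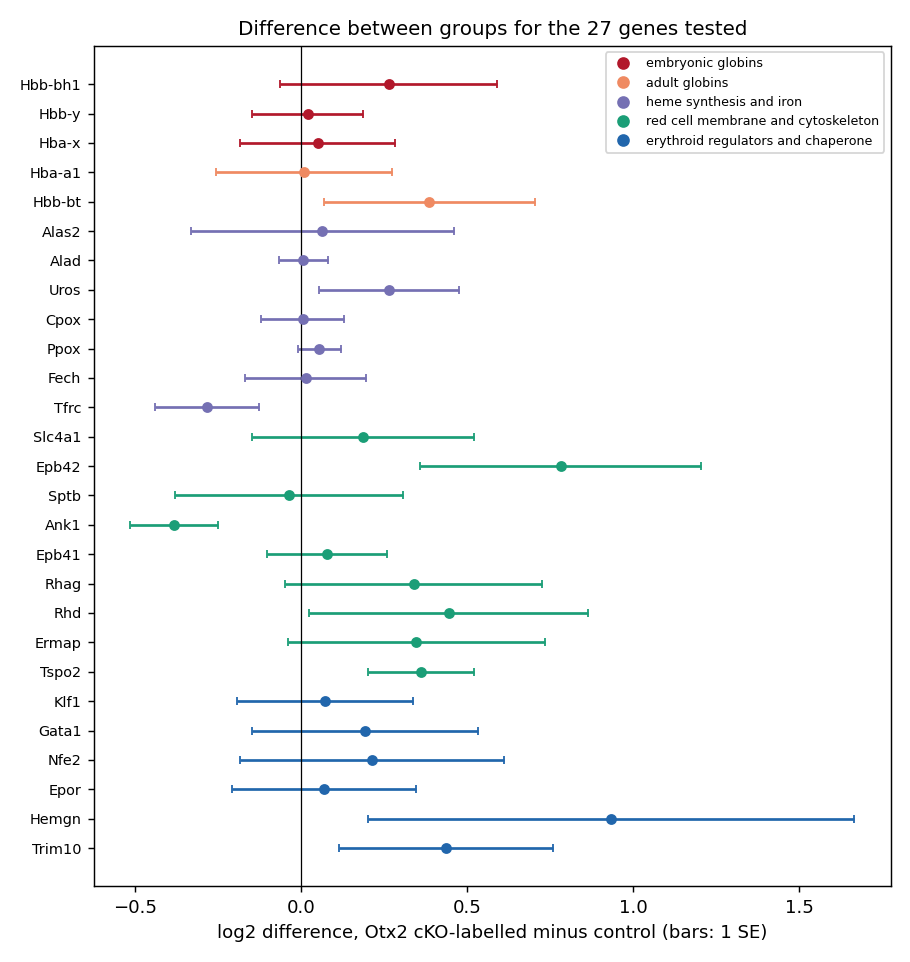
Log2 difference of each tested member (cKO-labelled minus control, horizontal axis) with 1 SE from limma, by gene and coloured by class. Most points lie right of 0, none passed the test, and Epb42 (0.78 ± 0.42) and Hemgn (0.93 ± 0.73) have the largest positive values and wide errors.

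The embryonic globins were bright on every array and did not separate the groups. Hbb-bh1 encodes a beta-like chain of primitive red cells, and its log2 signal was 4.64, 5.52 and 4.51 in cKO-labelled replicates 1 to 3, against 4.38, 4.29, 5.28 and 4.57 in control replicates 1 to 4. The cKO-labelled mean was 4.89 ± 0.55 (SD, n = 3) and the control mean 4.63 ± 0.45 (SD, n = 4), a difference of 0.26 ± 0.33 (SE, adjusted p = 0.801). cKO-labelled replicate 2 and control replicate 3 were high, the other 5 arrays lay close together, and the groups overlapped. A further probe of the gene gave a difference of 0.41. In bulk tissue, fewer red cells and less message per red cell cannot be told apart.

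Hbb-y encodes the other embryonic beta-like chain, epsilon-y. It had log2 signals of 7.17, 7.46 and 6.90 in cKO-labelled replicates 1 to 3 and 7.22, 6.89, 7.38 and 7.15 in control replicates 1 to 4. The difference was 0.02 ± 0.17 (SE, adjusted p = 0.978). Hba-x encodes zeta globin, the embryonic alpha-like chain. It stood at 5.99, 6.49 and 5.80 in cKO-labelled replicates 1 to 3 and at 5.89, 5.70, 6.49 and 6.10 in control replicates 1 to 4, a difference of 0.05 ± 0.23 (SE, adjusted p = 0.957). The same pair of arrays, one of each label, was highest for all 3 embryonic globins, and control replicate 2 was lowest for all 3. The range over the 7 arrays was 1.24 for Hbb-bh1, 0.58 for Hbb-y and 0.79 for Hba-x.

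The adult globins overlapped between the groups too, and the adult beta globin split the embryos into a high and a low set. The Hba-a1 probe reads adult alpha globin, and the near-identical Hba-a2 cannot be told apart from it. Its log2 signal was 7.24, 7.66 and 6.66 in cKO-labelled replicates 1 to 3, against 7.25, 6.89, 7.57 and 7.01 in control replicates 1 to 4, a difference of 0.01 ± 0.26 (SE, adjusted p = 0.994). Hbb-bt encodes adult beta globin, and its probes may also read the closely similar Hbb-bs, Hbb-b1 and Hbb-b2, which had no named probe. Which of these adult beta globin genes each embryo carries was not examined. The brightest of its 4 probes was marked as an outlier on cKO-labelled replicate 3 and control replicate 4, so the fit used 2 and 3 values there. They were 7.33 and 7.48 in cKO-labelled replicates 1 and 2 and 7.27, 6.42 and 7.35 in control replicates 1 to 3, a difference of 0.39 ± 0.32 (SE, adjusted p = 0.704).

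The next brightest Hbb-bt probe had a value on every array and is used for the comparison of embryos. It gave 6.73, 6.70 and 5.50 in cKO-labelled replicates 1 to 3, against 6.73, 5.69, 6.57 and 5.54 in control replicates 1 to 4, a difference of means of 0.18. The values fell into a high set (cKO-labelled replicates 1 and 2, control replicates 1 and 3) and a low set (cKO-labelled replicate 3, control replicates 2 and 4), each holding both labels. The other Hbb-bt probe with 7 values showed the same division, with 5.20, 5.32 and 4.02 in the cKO-labelled arrays and 5.41, 3.97, 5.03 and 4.05 in the controls. For Hba-a1 and the embryonic Hbb-y, every array of the high set also ranked above every array of the low set, without a clear division. The lowest of the high set and the highest of the low set were 7.24 and 7.01 for Hba-a1, and 7.17 and 7.15 for Hbb-y. The widest step lay elsewhere, from 7.25 to 7.57 inside the high set for Hba-a1 and from 6.90 to 7.15 inside the low set for Hbb-y. Hbb-bh1 and Hba-x did not rank this way. Relative to the control mean, the brighter complete Hbb-bt probe stood at 0.60 and 0.59 in cKO-labelled replicate 1 and control replicate 1. The mean of the 3 embryonic globins stood at -0.01 and -0.11 there. The 2 lowest on that Hbb-bt probe, cKO-labelled replicate 3 and control replicate 4, stood at -0.63 and -0.59, beside -0.21 and -0.01 for the embryonic globins. In cKO-labelled replicate 2 and control replicate 3 both measures were high, at 0.57 and 0.44 for Hbb-bt and 0.55 and 0.44 for the embryonic globins.

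**Figure D2:**
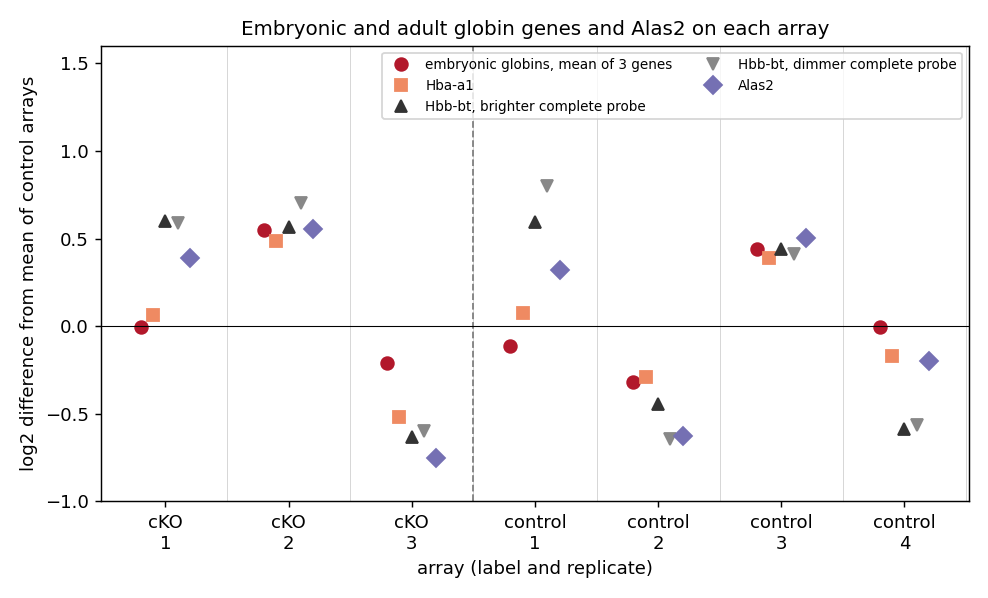
Log2 difference from the mean of the 4 control arrays (vertical axis) for the mean of the 3 embryonic globins, Hba-a1, 2 probes of Hbb-bt and Alas2 on each array, cKO-labelled left of the dashed line and control right of it. The Hbb-bt probes and Alas2 lie well above the embryonic globins in cKO-labelled replicate 1 and control replicate 1, and close to them in cKO-labelled replicate 2 and control replicate 3.

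Among the heme synthesis genes, the erythroid enzyme followed adult beta globin while most of the shared enzymes varied less between embryos. Alas2 encodes the red cell form of the first enzyme of the pathway. Its log2 signal was 2.00, 2.16 and 0.86 in cKO-labelled replicates 1 to 3, against 1.93, 0.98, 2.11 and 1.41 in control replicates 1 to 4, a difference of 0.06 ± 0.40 (SE, adjusted p = 0.969). It was high on the same 4 arrays as adult beta globin, and its range over the arrays was 1.31. The later enzymes are made in all cells that form heme, red or not.

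Alad, the enzyme after Alas2, ranged over only 0.17 across the 7 arrays, with a difference of 0.01 ± 0.07 (SE). Ppox, the last but one enzyme, ranged over 0.11, and 0.33% of tested genes had a smaller range, with a difference of 0.05 ± 0.07 (SE). Cpox, which precedes it, had a difference of 0.0046 ± 0.12 (SE), and Fech, which inserts the iron, of 0.01 ± 0.18 (SE). Uros had a difference of 0.26 ± 0.21 (SE, adjusted p = 0.681), and its highest value was that of cKO-labelled replicate 1, at -0.89, where the other 2 cKO-labelled arrays stood at -1.62 and -1.59 and the controls between -1.78 and -1.34. Tfrc, the transferrin receptor that takes up iron in dividing cells of many kinds, gave 0.61, 0.84 and 0.70 in the cKO-labelled arrays and 1.38, 0.79, 0.99 and 0.83 in the controls, a difference of -0.28 ± 0.16 (SE, adjusted p = 0.558). Control replicate 1 was the high array there, and the other values of both labels ran into each other.

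A pair of members of this class was not tested because too few spots were free of an outlier mark. Urod, an enzyme in the middle of the pathway, was marked on 6 of 7 arrays. With the marked spots kept it stood at 3.68, 3.59 and 3.63 in the cKO-labelled arrays and at 3.60, 3.66, 3.64 and 3.57 in the controls, a difference of 0.02. Slc25a37, mitoferrin, carries iron into mitochondria. With marked spots kept, its brighter probe stood at 1.73, 2.21 and 1.49 in the cKO-labelled arrays and at 1.77, 1.08, 1.93 and 1.50 in the controls, a difference of 0.24. Its highest arrays were again cKO-labelled replicate 2 and control replicate 3, and its lowest was control replicate 2.

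Genes of the red cell membrane varied widely between embryos, with a median range over the 7 arrays of 1.39, beside 0.74 for the heme and iron genes and 0.52 for all genes tested. Slc4a1 encodes band 3, the anion exchanger, and its log2 signal was 1.43, 2.14 and 0.94 in cKO-labelled replicates 1 to 3, against 1.30, 0.81, 1.85 and 1.32 in control replicates 1 to 4. The difference was 0.19 ± 0.33 (SE, adjusted p = 0.874). Rhd and Rhag encode the Rh protein and its partner glycoprotein. Rhd stood at -2.20, -1.21 and -2.24 in the cKO-labelled arrays and at -2.75, -2.92, -1.43 and -2.19 in the controls, a difference of 0.44 ± 0.42 (SE, adjusted p = 0.740). Rhag had a difference of 0.34 ± 0.39 (SE) and Ermap, an erythroid membrane protein, of 0.35 ± 0.39 (SE). In each of these 4 genes cKO-labelled replicate 2 was highest, control replicate 3 was next and control replicate 2 was lowest.

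Epb42, protein 4.2, which links band 3 to the cytoskeleton, had the largest difference of the class. Its log2 signal was -2.82, -2.83 and -4.15 in cKO-labelled replicates 1 to 3, against -3.90, -4.83, -3.53 and -3.94 in control replicates 1 to 4, a difference of 0.78 ± 0.42 (SE, adjusted p = 0.552). cKO-labelled replicates 1 and 2 lay above every control, while cKO-labelled replicate 3 lay below 3 of the 4 controls. Its other probe gave a difference of 0.39, with cKO-labelled replicate 1 at -3.88 and inside the controls. Tspo2, an erythroid cholesterol-binding membrane protein, stood at -2.15, -1.61 and -1.91 in the cKO-labelled arrays and at -2.27, -2.48, -2.01 and -2.26 in the controls. The difference was 0.36 ± 0.16 (SE, adjusted p = 0.466), and the groups overlapped because control replicate 3 lay above cKO-labelled replicate 1.

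The cytoskeletal members Ank1, Sptb and Epb41 are also used by neurons and other cells. Ank1, ankyrin, was the member with the smallest p. It had log2 signals of -0.36, -0.51 and -0.75 in cKO-labelled replicates 1 to 3, against 0.02, -0.32, -0.05 and -0.28 in control replicates 1 to 4. Every cKO-labelled value lay below every control value, and the difference was -0.38 ± 0.13 (SE, limma, unadjusted p = 0.0241, adjusted p = 0.383). A second probe of the gene, also well above background on every array, gave a difference of -0.09 with overlapping groups, and another gave 0.27. Sptb, beta spectrin, had a difference of -0.04 ± 0.34 (SE), while its dimmer probes gave 1.54 and -0.29. Epb41, protein 4.1, had a difference of 0.08 ± 0.18 (SE) and was highest in control replicate 2, the array that was lowest for most of the class.

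The erythroid regulators included dim probes, and cKO-labelled replicate 2 was the highest array for all 6 that were measured. Klf1 encodes a zinc finger activator of red cell genes, and its log2 signal was -3.23, -2.43 and -3.18 in cKO-labelled replicates 1 to 3, against -3.37, -3.26, -2.65 and -2.80 in control replicates 1 to 4. The difference was 0.07 ± 0.26 (SE, adjusted p = 0.942). Gata1, the zinc finger factor that erythroid cells depend on, stood at -5.30, -4.28 and -5.36 in the cKO-labelled arrays and at -5.25, -5.74, -4.73 and -4.95 in the controls, a difference of 0.19 ± 0.34 (SE, adjusted p = 0.873). Epor, the erythropoietin receptor, gave -1.54, -0.52 and -1.40 in the cKO-labelled arrays and -1.48, -1.46, -0.94 and -1.01 in the controls, a difference of 0.07 ± 0.28 (SE, adjusted p = 0.947). For all 3, cKO-labelled replicate 2 was high and the other cKO-labelled arrays lay among or below the controls.

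Nfe2, the large subunit of a globin enhancer-binding factor, had a difference of 0.21 ± 0.40 (SE), and Trim10, an erythroid RING finger protein, of 0.44 ± 0.32 (SE). Hemgn, hemogen, had the largest difference and the largest error of all members. It had log2 signals of -6.42, -3.56 and -4.90 in cKO-labelled replicates 1 to 3, against -6.92, -6.20, -4.98 and -5.48 in control replicates 1 to 4, a difference of 0.93 ± 0.73 (SE, adjusted p = 0.678). The probe was well above background on 6 of 7 arrays, and the gene's dimmer probes on 0 and 1. The range of the probe used was 3.36 over the arrays, and cKO-labelled replicate 2 stood well above every other array.

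Among embryos of the same label most members varied more than the typical gene. The SD among the 4 controls was above the median of all tested genes (0.16) in 25 of 27 members and above the 90th percentile (0.51) in 6. It ran between 0.04 for Ppox and 0.85 for Hemgn. The highest and lowest arrays were counted for the 18 members of the embryonic globin, membrane and regulator classes. cKO-labelled replicate 2 was highest in 15 and control replicate 2 was lowest in 12, and the shares of all genes were not counted. The median shift of these 18 from the control mean was -0.02, 0.86 and -0.14 in cKO-labelled replicates 1 to 3, against -0.13, -0.34, 0.45 and 0.04 in control replicates 1 to 4. cKO-labelled replicate 2 and control replicate 3 were the top pair in 13 of the 18, the exceptions being Epb42, Ank1, Epb41, Tspo2 and Hemgn. Over all genes tested, the median shift was also highest in cKO-labelled replicate 2, at 0.09, and lay between -0.05 and 0.05 on the other arrays. That array had the largest shares of spots well above background (72.2%) and of spots marked as outliers (2.51%).

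**Figure D3:**
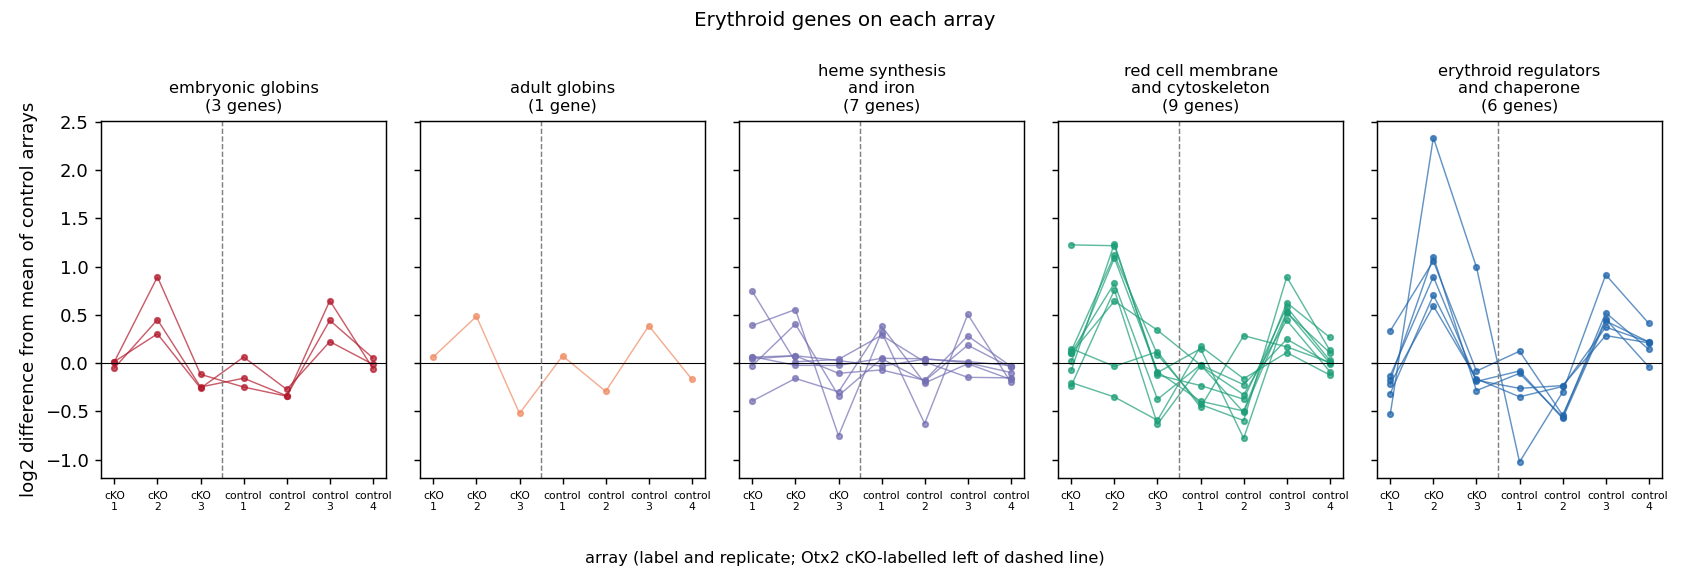
Log2 difference of each member from the mean of the 4 control arrays (vertical axis) on each array, 1 line per gene and 1 panel per class, cKO-labelled left of the dashed line and control right of it; the 26 members measured on all arrays are drawn. Lines of the embryonic globin, membrane and regulator panels peak in cKO-labelled replicate 2 and again in control replicate 3, and the heme panel holds nearly flat lines for Alad and Ppox beside wider ones for Alas2 and Uros.

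The embryos were also compared in pairs that share a label, a litter or a slide. Control replicate 3 was above control replicate 2 in 17 of the 18 genes, with a median difference of 0.97, where both are controls of litter 2 on different slides. cKO-labelled replicate 2 was above cKO-labelled replicate 3, on the same slide but from another litter, in 17 of 18, with a median difference of 1.06. Within litter 2, cKO-labelled replicate 3 was above control replicate 3 on the same slide in 2 of 18 (median -0.66). On the other slide, cKO-labelled replicate 1 was above control replicate 2, also of litter 2, in 14 of 18 (median 0.31). The shares of all genes were not counted for these pairs. The span of litter 2 covered at least 50% of the span of all 7 arrays in 22 of 26 members (84.6%), beside 78.6% of all 12675 genes with complete values.

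The sign of the members' differences was not the same within each slide and litter. On slide 1 alone, where 1 cKO-labelled array meets 2 controls, 23 of 27 members were above 0, with a median of 0.20. Within slide 2, with 2 and 2, it was 14 of 26 with a median of 0.02, and with slide as a block 17 of 27 with a median of 0.07. Within litter 2, with 2 and 2, it was 5 of 26 with a median of -0.11. The medians over all genes in these 4 fits, in the same order, were -0.03, 0.03, 0.005 and -0.05. Hbb-bh1 showed the change of sign, at 0.31 within slide 1, 0.09 within slide 2 and -0.20 within litter 2. Epb42 (1.54, 0.24 and 0.69), Uros (0.59, 0.18 and 0.46), Tspo2 (0.22, 0.37 and 0.21) and Trim10 (0.54, 0.28 and 0.17) were above 0 in all 3, and Ank1 (-0.21, -0.47 and -0.37) and Tfrc (-0.48, -0.14 and -0.24) below 0 in all 3. Limma called none of the members tested within slide 1, slide 2 or litter 2, where 0% of all genes were called, and 1, 1 and 0 members had an unadjusted p under 0.05, against 3.15%, 9.42% and 6.28% of all genes. The parts of litter and slide in the differences between embryos were not tested.

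Markers of other cells that come with blood vessels and meninges shifted between the same embryos. Of 10 platelet and megakaryocyte markers 7 were measured on every array, and their median shift from the control mean was -0.48, 1.30 and -0.43 in cKO-labelled replicates 1 to 3, against -0.25, -0.33, 0.23 and 0.42 in control replicates 1 to 4. Their summed linear signal, in units of the array's 75th percentile, was 1.32 to 4.77 in cKO-labelled arrays and 1.26 to 3.34 in controls. Itga2b of this list was well above background on 1 array, and Gp6 had no named probe. Like the red cell genes, the list was highest in cKO-labelled replicate 2, but control replicate 4 and not control replicate 3 came next.

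Of 10 endothelial markers 9 had complete values, with median shifts of -0.38, 0.80 and -0.50 in the cKO-labelled arrays and 0.01, -0.39, 0.15 and 0.22 in the controls; their sum was 7.33 to 17.3 in cKO-labelled arrays and 7.90 to 12.9 in controls. Of 10 pericyte and mesenchyme markers 9 had complete values, with median shifts of -1.13, 1.55 and -0.77 in the cKO-labelled arrays and 0.31, -1.19, 0.23 and 0.67 in the controls; their sum was 4.70 to 47.4 and 4.73 to 25.1. Of 10 microglia and leukocyte markers 9 had complete values, with median shifts of -0.23, 0.61 and -0.40 in the cKO-labelled arrays and 0.29, -0.36, 0.03 and 0.18 in the controls; their sum was 2.44 to 5.04 and 2.41 to 3.73. All 3 lists were highest in cKO-labelled replicate 2. The part of these cells, or of vessels and meninges in the dissection, in the red cell values was not tested.

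The labelled tissue was present on every array. Of 10 subpallial neural markers all were tested and 8 had complete values, with median shifts between -0.14 and 0.04 in cKO-labelled arrays and between -0.12 and 0.12 in controls, and a sum of 203 to 223 and 215 to 238. Fetal liver and yolk sac are other sources of erythroid cells, and among their 8 markers 3 were tested; Alb and Apoa1, genes of liver serum proteins, were well above background on 0 arrays. Afp, alpha-fetoprotein, stood at -6.40, -5.70 and -5.96 in cKO-labelled replicates 1 to 3, against -0.65, -5.61, -6.09 and -6.31 in control replicates 1 to 4. Control replicate 1 was far above the rest for this gene. Relative to the control mean, its embryonic globins stood at -0.11 and its Hba-a1 at 0.07. The Hbb-bt probes with complete values stood at 0.59 and 0.80 on that array, and Alas2 at 0.32. A link between Afp and these genes was not tested.

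**Figure D4:**
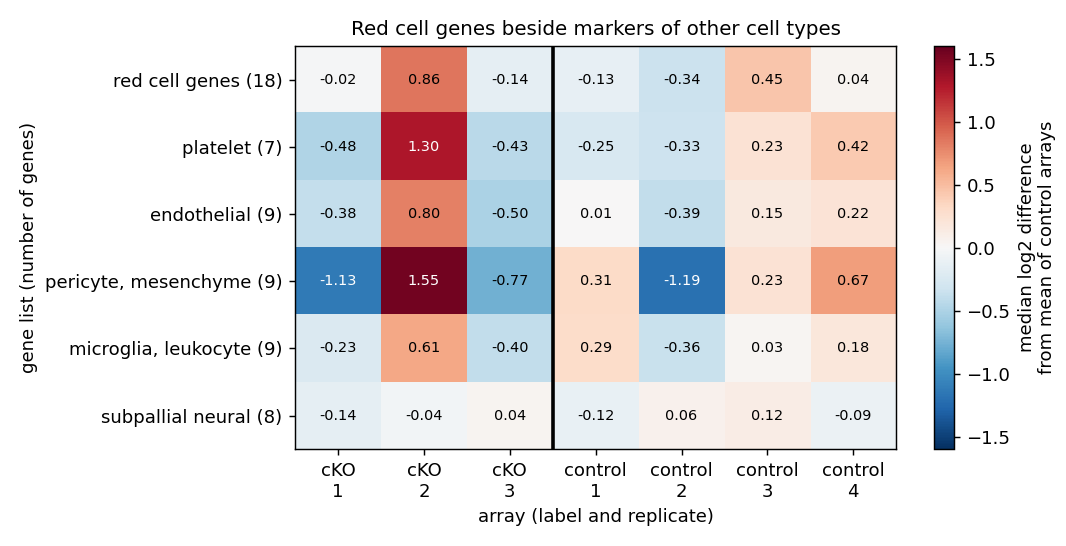
Median log2 difference from the mean of the 4 control arrays for the 18 red cell genes and for the platelet, endothelial, pericyte and mesenchyme, microglia and leukocyte, and subpallial neural marker lists (rows, with the number of genes having complete values) on each array (columns, cKO-labelled left of the line). cKO-labelled replicate 2 is highest in every plotted row except the neural one, and control replicate 3 is next in the red cell row only.

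Other genes of the red cell program, in 4 lists holding 93 genes, showed no call either. Limma called 0 of the 78 tested, and at an unadjusted p under 0.05 0 were higher and 6 lower (7.69%), against 4.29% and 6.78% of all genes; the median difference over the 78 was 0.02, the same as over all genes. Of 11 other globins 4 were tested. The theta-like chain genes Hbq1a and Hbq1b had differences of 0.39 ± 0.30 and 0.07 ± 0.42 (SE), and cytoglobin, Cygb, a globin of fibroblast-like and other cells, had one of -0.64 ± 0.21 (SE, adjusted p = 0.349). Cygb stood at 0.26, 0.21 and -0.42 in the cKO-labelled arrays and at 1.02, 0.54, 0.61 and 0.46 in the controls, without overlap, against 7.26% of all genes with every cKO-labelled value below the controls.

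Of 23 other erythroid regulators 19 were tested, with a median difference of 0.01. The largest differences were those of Foxo3, -0.78 ± 0.82 (SE), well above background on 3 arrays; of Sox6, a repressor of embryonic globin genes in definitive red cells that is also made in ganglionic eminence neurons, -0.64 ± 0.11 (SE, adjusted p = 0.221) on 2 and 3 unmarked values; and of Stat5a, a mediator of erythropoietin signals, 0.42 ± 0.35 (SE). Sox6 stood at 2.64 and 2.78 in cKO-labelled replicates 1 and 2 and at 3.35, 3.25 and 3.44 in control replicates 1 to 3, and the 2 sets did not overlap, as in 15.6% of the 154 genes with 2 and 3 values, counting those with cKO-labelled values below the controls. Among 28 tested of 29 other membrane proteins and enzymes the median was 0.04, with differences of 0.54 ± 0.33 (SE) for the urea transporter Slc14a1 and 0.47 ± 0.59 (SE) for the adhesion molecule Icam4. Among 27 tested of 30 other genes of heme and iron handling the median was -0.01, and the largest differences were -0.54 ± 0.26 (SE) for Flvcr2, 0.38 ± 0.31 (SE) for the heme-binding protein gene Hebp1 and 0.31 ± 0.26 (SE) for biliverdin reductase B, Blvrb.

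The genes whose pattern over the 7 arrays was nearest to the mean of the 3 embryonic globins were sought among 7841 other genes with at least 50% of its range, by the root mean square difference of centred log2 values. They were C2cd2 (0.084), Depp1 (0.086), Olfr635 (0.101), Olfr684 (0.112), Zfp708 (0.112), Arpc1b (0.117), Esrrb (0.119), Barx2 (0.121), Fam117a (0.122) and Esyt3 (0.123). Among the members Hba-x was nearest at 0.045, being part of the mean, and outside the embryonic globins Fech (0.138), Hba-a1 (0.151), Klf1 (0.151) and Slc4a1 (0.154) followed. Hemgn was farthest at 0.868. With 7 arrays and so many genes, near patterns are a description of these embryos only.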

How the data were processed

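Total RNA of 1 embryo per array was amplified, Cy3-labelled and put on 1-colour Agilent whole mouse genome arrays, per the labels' protocols. The deposited spot intensity values were background-subtracted and detrended by Agilent Feature Extraction 10.7.3.1, per the file headers, with no normalization between arrays; the submitters' processing notes name version 10.5. A table of log2 values that the authors deposited followed the median spot signal in rank (column medians 7.61 to 7.64; scale and centring not given in the sources used here) and served as an alternative.

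Processed signals were scaled to each array's 75th percentile, given a common floor (log2 value -7.49) and log2-transformed. Control spots and spots marked as outliers (1.24% to 2.51%) were left out; 0 were saturated. Of 41174 probes 24844 had 1 symbol through RefSeq accessions (GRCm38.p6 gene table), 0 several and 16330 none. A gene was its brightest probe, tested when well above background on at least 3 arrays with at least 2 unmarked values per group. Limma 3.58.1 in R 4.3.3 (lmFit, eBayes, group as only term) was fitted to 13350 genes, with Benjamini-Hochberg adjustment over all of them and a threshold of 0.05; the code was tested on simulated data. The number of arrays limits the precision (median SE 0.13). The litter is the number before the point in the label. The normexp alternative used the median spot signal in place of the mean.

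Named are all members, in each pathway list any gene called and the 3 with the largest differences, and the 10 genes nearest in pattern; Afp was named after its values were seen, as were the genes in the last part of the closing section. A few genes that these rules name are not reported here. The members and lists were chosen with earlier results of these data known.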

Additional observations from a re-analysis of the deposited data

Results flagged for a closer look

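Afp, the gene of alpha-fetoprotein, a serum protein of the fetal liver and yolk sac, stood apart in 1 control. Its log2 signal was -6.40, -5.70 and -5.96 in cKO-labelled replicates 1 to 3, against -0.65 in control replicate 1 and -5.61, -6.09 and -6.31 in control replicates 2 to 4. Control replicate 1 was 31.2-fold above the next array, and its gap to the nearest control was 0.876 of the range of the controls, above Dixon's critical value for 4 samples. Of 40 genes whose controls were examined this way, 1 stood apart, where chance gives about 1 in 20.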

How the results depend on the processing

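In 25 alternatives no member was called, the smallest adjusted p of any member was 0.172 (Ank1, with array weights), and 0 to 3 members had an unadjusted p under 0.05. Hbb-bt, Uros, Tfrc, Epb42, Ank1, Tspo2 and Trim10 kept their sign wherever they were fitted, and the other 20 had the opposite sign in at least 1 alternative. Hbb-bt was fitted in only 21 of the 25. It had no fit within slide 2, within litter 2 or without cKO-labelled replicate 1 or 2. Another Hbb-bt probe, with 6 unmarked values, gave a difference of means of -0.04. The count of all genes called by limma, 28, was 50 with normexp and quantile normalization, 43 in the authors' value table, 11 without a filter on dim probes, 52 with a variance trend, 60 with array weights and 17 with slide as a block. It was 0 within slide 1, within slide 2, with litter as a block, within litter 2 and with the replicate number as a block (replicate block), where 413, 1210, 825, 811 and 1491 genes had an unadjusted p under 0.05; leaving out 1 array gave 0 to 25. Same-numbered arrays correlated at 0.11, -0.53 and 0.03 in their deviations, for replicates 1 to 3. These values cannot settle whether the numbers pair embryos. The arrays numbered 3 shared litter 2 and slide 2 and still correlated at only 0.03. The adult globin median was 0.20 over 2 genes. Within slide 2, within litter 2 and without cKO-labelled replicate 2, Hbb-bt could not be fitted and only Hba-a1 was left. Hba-a1 stood at -0.13, -0.28 and -0.23 in these 3 fits, beside 0.01 over all arrays. The highest adult globin median with 1 array left out was 0.35 (without control replicate 3). The membrane median, 0.34, was -0.10 with litter as a block and within litter 2, and -0.0354 (without cKO-labelled replicate 2) to 0.49 (without cKO-labelled replicate 1) with 1 array left out. No scaling moved the median of all genes by over 0.1. Signal over background limits the dim probes, Hemgn above all. The cause of these shifts was not tested.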

Other observations

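The genes nearest in pattern to the Hbb-bt probe with complete values were sought after its division of the embryos was seen, among 5355 genes with at least 50% of its range. Alas2 was nearest, with a root mean square difference of 0.209 log2 units over the 7 arrays, and Htatip2 (0.229), Bcl2a1b (0.241) and Hbq1a (0.251), the last a theta globin gene, were also near. Alas2 was one of the members and Hbq1a one of the other globins, and both were high in cKO-labelled replicates 1 and 2 and control replicate 1.

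Olfr635, an odorant receptor gene among the nearest to the embryonic globin pattern, lies 10 genes from Hbb-y on chromosome 7, and Olfr684 lies 97 genes away, by gene order in the RefSeq table. Odorant receptor genes flank the beta globin cluster in mice. Olfr635 stood at -5.93, -5.35 and -6.09 in cKO-labelled replicates 1 to 3, against -6.16, -6.44, -5.36 and -5.92 in control replicates 1 to 4, a dim signal that was well above background on every array. Within 30 genes to either side of Hbb-y, 33 odorant receptor genes had a probe, of which 22 were well above background on no array, 2 on every array, and 6 were tested. Of all 886 odorant receptor genes with a probe, 184 were tested. Olfr611, the other neighbour well above background on every array, had another pattern and was highest in cKO-labelled replicate 3, at -4.84.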
